A study of Mus musculus with 50 samples.

Results

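Glycolysis was described in 50 single mouse cells through the rows of 10 enzyme genes, Hk1, Hk2, Gpi1, Aldoa, Tpi1, Gapdh, Pgk1, Pgam1, Eno1 and Ldha. The rows were found by gene symbol, and all 10 had a row among the 11879 gene rows of the table. The cells were induced hemogenic endothelial cells (iHECs), the endothelial cells from which blood forms, made in culture from an embryonic stem cell line of strain C57BL/6. The line carried a doxycycline-inducible Runx1 cassette at Rosa26 (iRunx1), doxycycline was given at 1 µg/mL from day 6, and the study's methods describe iHECs as sorted on day 11 as CD31+CD41lowCD45-c-kit+CD201high. The cells were 1 group from 1 line with no replicate culture named and no control, so values are described over cells and no test between conditions was possible.

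Glycolysis splits glucose into pyruvate in the cytosol and yields ATP and NADH without oxygen. Hexokinase traps glucose inside the cell as glucose 6-phosphate, and the enzymes that follow rearrange, cleave and oxidise the sugar. Lactate dehydrogenase then turns pyruvate into lactate, which restores NAD+ for the pathway. Many of these genes are induced by hypoxia-inducible factors, and the pathway is known to be active in blood stem cells and in endothelium.

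Each value is a TPM, a transcript abundance scaled for gene length and to a common total per cell, so levels can be compared between genes. The column totals were 942975 to 970894 TPM. TPM keeps no read depth, so depth per cell is unknown, and the number of genes above TPM 1 in a cell, which ranged from 2400 to 8615 with a median of 6223.5, was used in its place. Cells are named by the 2 numbers of their titles. The first number, 1 to 4, marked 11, 14, 13 and 12 cells, and its meaning was not given. The endothelial markers Pecam1 (CD31) and Cdh5 were above TPM 1 in all 50 cells, with medians of 326 and 140 TPM. The pan-blood marker Ptprc (CD45) was listed at 0 in all 50 cells. The sort described in the methods took CD31+ and CD45- cells, so the results for Pecam1 and Ptprc were partly selected. Of the other 5 genes of the blood list, Laptm5 and Lcp1 were above TPM 1 in 48 and 49 cells, Coro1a in 21, Rac2 in 10 and Cd52 in 3.

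Gene positions below are those of GENCODE on GRCm38. Hexokinase was the step with the lowest levels of those described. Hk1 (chr10:62268855-62379908, - strand), the widely expressed hexokinase, had a lowest value of 0, a median of 40.7 and a highest value of 147 TPM, and it was above TPM 1 in 44 of 50 cells (88%, exact 95% binomial interval 75.7% to 95.5%). Hk2 (chr6:82725025-82774454, - strand), the inducible hexokinase of muscle and tumours, had values of 0, 12.0 and 109 TPM in the same order and was above TPM 1 in 41 cells (82%, 68.6% to 91.4%). These intervals cover counting error over cells only. Both hexokinases were above TPM 1 in 36 cells, Hk1 alone in 8, Hk2 alone in 5 and neither in 1 cell. The summed level of the pair had a median of 68.3 TPM and a highest value of 191 TPM, so that no cell reached in hexokinase the median of any other member. Hk1 was higher than Hk2 in 38 of 50 cells.

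Gpi1, Aldoa and Tpi1, the members that handle the sugar after hexokinase, were listed above TPM 1 in all 50 cells. Gpi1 (chr7:34201330-34230336, - strand), which turns glucose 6-phosphate into fructose 6-phosphate, had a lowest value of 35.5, a median of 631 and a highest value of 1500 TPM. Aldoa (chr7:126795234-126800751, - strand), the aldolase that cleaves the sugar into triose phosphates, had values of 715, 3516 and 6433 TPM. Its lowest cell was thus above the highest cells of both hexokinases. Tpi1 (chr6:124810586-124814296, - strand), which interconverts the triose phosphates, ran from 48.1 through a median of 1431 to 2694 TPM.

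The enzymes from Gapdh onward in the pathway were also found in every cell, at levels that differed between genes. Gapdh, which oxidises glyceraldehyde 3-phosphate and forms NADH, had a lowest value of 99.1, a median of 313 and a highest value of 1104 TPM. It had the lowest median of the 8 members outside hexokinase, although it is often used as a reference for abundant RNA. The study used qPCR of Gapdh and B2m to decide which amplified cDNA to keep, so the presence of Gapdh in every cell was partly selected. Pgk1 (chrX:106187100-106203699, + strand), which makes ATP from 1,3-bisphosphoglycerate, had values of 192, 1226 and 2090 TPM. Pgam1 (chr19:41911923-41918660, + strand), which moves the phosphate group of phosphoglycerate, had values of 53.1, 1103 and 1982 TPM. Eno1 (chr4:150236721-150248879, + strand), the enolase that forms phosphoenolpyruvate, had values of 551, 2592 and 6572 TPM. Ldha (chr7:46841475-46855627, + strand), the subunit of lactate dehydrogenase that favours lactate formation, had values of 178, 3679 and 7177 TPM and the highest median of the 10.

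**Figure D1:**
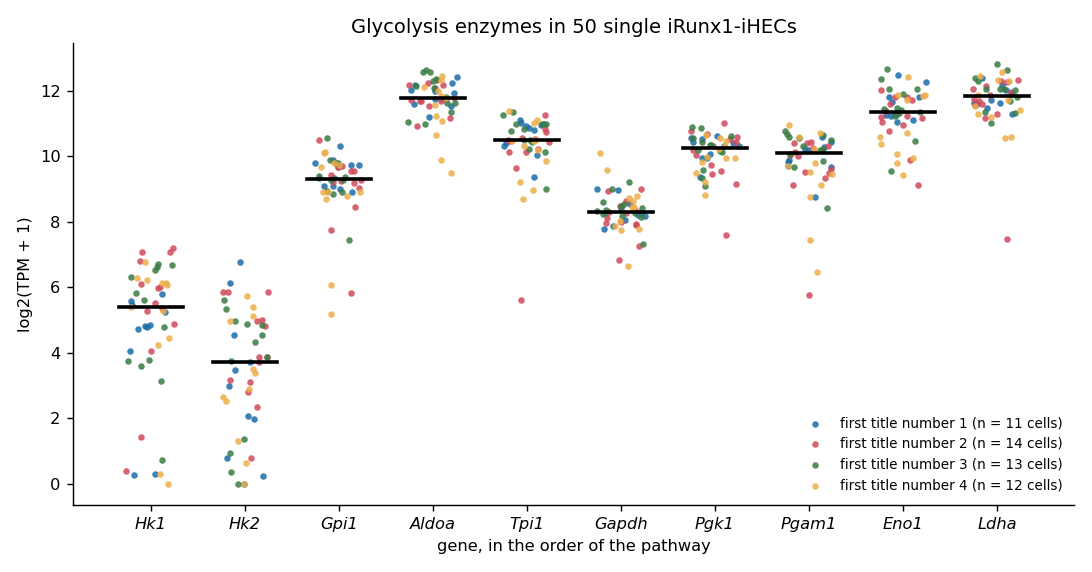
Log2(TPM + 1) of the 10 enzymes (x axis, in pathway order) in each of 50 cells (points, coloured by the first number of the cell title); black bars are medians over cells. Hk1 and Hk2, with medians of 40.7 and 12.0 TPM, sit apart from the other 8 enzymes, whose medians lie between 313 and 3679 TPM.

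Among all rows ordered by median TPM, Ldha was at rank 15, Aldoa at rank 16, Eno1 at rank 31, Tpi1 at rank 74, Pgk1 at rank 95 and Pgam1 at rank 108 of 11879. Gpi1 stood at rank 224 and Gapdh at rank 510, and the hexokinases followed at ranks 3001 and 4726. Within cells the order of neighbours was not always kept. Ldha was above Aldoa in 28 of 50 cells (56%, 41.3% to 70.0%), which does not separate the pair. Pgk1 was above Pgam1 in 32 cells (64%, 49.2% to 77.1%), and this interval also includes an even split. The other steps in the order were kept in more cells, with Aldoa above Eno1 in 39, Eno1 above Tpi1 in 44, Tpi1 above Pgk1 in 36, Pgam1 above Gpi1 in 41, Gpi1 above Gapdh in 46 and Gapdh above Hk1 in 50 cells.

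The level of Gapdh was uncertain because of near copies in the genome. In GENCODE release M21, transcripts of 191 other genes had at least 90% identity to Gapdh over at least 300 bases, and 6 of these had a row in the table. One of them, the processed pseudogene Gm12070 (GRCm38, chr11:26786633-26787634, + strand), is 1002 bases long, spans the coding sequence of Gapdh (chr6:125161715-125166467, - strand) from start to stop codon and differs from it by 1 base, G361A, counted from 1 at the first base of the Gapdh start codon. The 61 bases around it, coding bases 331 to 391, are shown because they hold the only base, in capitals, that differs between them within the coding sequence.

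Gapdh: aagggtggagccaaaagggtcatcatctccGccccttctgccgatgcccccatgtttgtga

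Gm12070: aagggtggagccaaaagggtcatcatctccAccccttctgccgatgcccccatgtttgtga

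Gm12070 was listed at 0 to 1040 TPM with a median of 375 TPM, and it was above Gapdh in 40 of 50 cells. Its rho with Gapdh over the 50 cells was 0.81. The sum of both rows had a median of 685 TPM, above that of Gpi1. How the authors' pipeline shared reads between these rows was not tested, and the value given for Gapdh is that of its own row. Eno1 also had a near copy, Gm5506 (Eno1b), annotated as protein coding, with 99.5% identity over 1736 bases, a median of 148 TPM and a rho of 0.86 with Eno1, and it was above Eno1 in 0 of 50 cells. The sum of Eno1 and Gm5506 had a median of 2752 TPM, so the place of Eno1 in the order was kept. At 90% identity over 300 bases, 17 other genes were found for Ldha, 8 for Eno1 and 7 for Aldoa. Each of these members had 1 such gene with a row. The part of such copies in the levels of Ldha and Aldoa was not tested.

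Taken as a sum, the 10 rows had a median of 15013 TPM, with a lowest value of 3519 and a highest value of 26993 TPM. This was a median of 1.56% of a cell's TPM, with quartiles of 1.27% and 1.97% and extremes of 0.367% and 2.8%, a span of 7.63 times. A few genes carried most of the sum, with median shares of 24.6% for Ldha, 23.9% for Aldoa, 17.5% for Eno1 and 9.74% for Tpi1. The hexokinases had median shares of 0.288% for Hk1 and 0.0687% for Hk2. The medians by first title number were 1.59%, 1.53%, 1.83% and 1.27% of TPM for numbers 1 to 4.

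**Figure D2:**
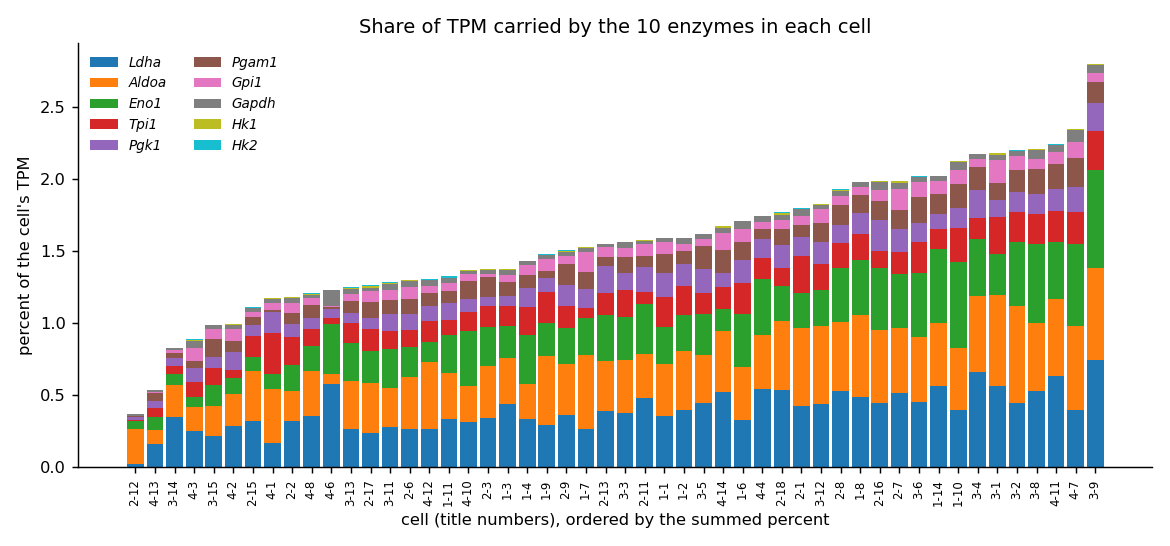
Percent of a cell's TPM carried by the 10 enzymes (y axis, stacked by gene) in each of 50 cells (x axis, named by title numbers and ordered by the total). The total runs from 0.367% in cell 2-12 to 2.8% in cell 3-9, and Aldoa makes up 66.1% of the enzyme sum in cell 2-12.

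A few cells stood apart. Cell 2-12, with the lowest total, had all 10 members below their medians and 5 of them, Tpi1, Pgk1, Pgam1, Eno1 and Ldha, at their lowest value of any cell. Its Ldha was 178 TPM, against 1498 TPM in the next lowest cell, while its Aldoa was 2326 TPM. Cell 4-13, with the second lowest total of 0.531%, also had all 10 members below their medians. Cells 2-12 and 4-13 had 5137 and 4528 genes above TPM 1, the 9th and 5th fewest of 50. The next lowest total was 0.827%, in cell 3-14. Cell 3-9, with the highest total, had the highest Eno1 and the highest Ldha of any cell, and 2 members below their medians.

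Cell 4-6, with the fewest genes above TPM 1 (2400), had an uneven set of values. Its Aldoa of 715 TPM and Gpi1 of 35.5 TPM were the lowest of any cell, and its Gapdh of 1104 TPM was the highest. Its Ldha of 5550 TPM and Eno1 of 3357 TPM were above the medians of those genes, and its total of 1.23% was within the range of the other cells.

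The spread of each gene was described by the SD over cells of log2(TPM + 1). It was smallest for Gapdh (0.61), Pgk1 (0.63) and Aldoa (0.63), followed by Ldha (0.79), Eno1 (0.82), Tpi1 (0.92), Pgam1 (1.01) and Gpi1 (1.06), and it was widest for Hk2 (1.89) and Hk1 (2.02). The 304 rows with a median of 500 TPM or more had a median SD of 0.71, and of the 7 members among them only Aldoa and Pgk1 were below it. The 526 rows with a median between 200 and 500 TPM had a median SD of 1.37, above that of Gapdh. The part of the qPCR of Gapdh by which cDNA was kept, and of the near copy, in this narrow spread was not tested. The hexokinases were below rows of like level, which had a median SD of 2.49 (1229 rows with a median of 30 to 60 TPM, for Hk1) and 2.27 (714 rows with a median of 8 to 16 TPM, for Hk2). The summed level of the 10 members had an SD of 0.53, and of 0.39 without cells 2-12 and 4-13.

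The enzymes varied together over the cells. Spearman's rho of TPM was computed for each of the 45 pairs over the 50 cells, as a description with no p, since the cells shared preparation kits and a common TPM total and no replicate culture was named. The median rho was 0.35, the range was -0.020 to 0.67, 43 pairs were above 0, and 27 pairs (60%) were above 0.3. As background, 4.88% of the 5836236 pairs among the 3417 genes that passed TPM 1 in 80% of cells or more were above 0.3, with a median rho of 0.032. Among the 304 rows with a median of 500 TPM or more, 11.4% of pairs were above 0.3, with a median rho of 0.012, while 19 of the 21 pairs of the 7 members of that abundance were above 0.3, with a median of 0.48.

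The highest values joined enzymes from aldolase onward. Eno1 and Ldha had a rho of 0.67, Pgam1 and Eno1 0.66, Aldoa and Tpi1 0.62, Aldoa and Pgam1 0.58, and Pgk1 and Eno1 0.58. The gene with the highest rho with the score of the other 9 members was Aldoa (0.77), followed by Pgam1 (0.72), Eno1 (0.64), Ldha (0.60), Pgk1 (0.57), Gapdh (0.53), Tpi1 (0.48) and Gpi1 (0.46). The score of a list is the mean over its genes of log2(TPM + 1), each centred and scaled over cells. Tpi1 and Gapdh, which lie on chromosome 6 with 347418 bases between them, had a rho of 0.35, below the median of 0.46 over the 28 pairs without hexokinase.

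The hexokinases had lower values. Hk1 and Hk2 had a rho of 0.26 and 0.056 with the other 9 members, and of 0.16 with each other. The 17 pairs with a hexokinase had a median rho of 0.13 and 1 of them, Hk1 and Gpi1 (0.34), was above 0.3. The 28 pairs without hexokinase had a median of 0.46, and 26 of them were above 0.3. The exceptions were Gpi1 with Ldha (0.15) and Gpi1 with Eno1 (0.30). Hk1 and Hk2 were also the members with the lowest levels, and the part of low level in their rho was not tested.

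**Figure D3:**
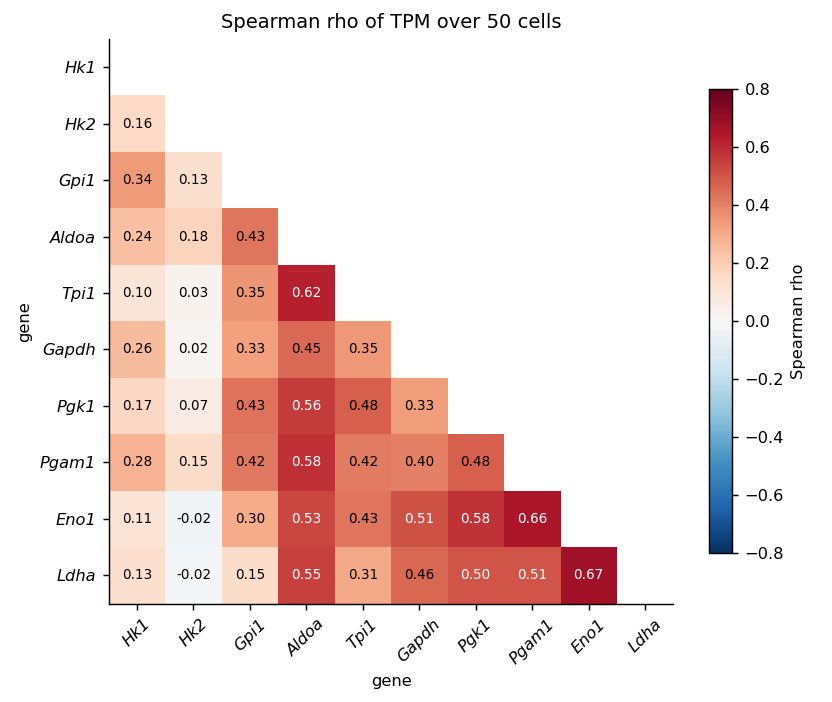
Spearman's rho of TPM over 50 cells for each of the 45 pairs of enzymes, both axes in pathway order, with red for positive and blue for negative values. The rows and columns of Hk1 and Hk2 are pale (median 0.13), and the block from Aldoa to Ldha is red, up to 0.67 for Eno1 and Ldha.

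The median rho of the member pairs was above 0 within each first title number. It was 0.21, 0.36, 0.46 and 0.35 for numbers 1 to 4. Of the 45 pairs, 25 were above 0 within all 4 numbers, and of the 28 pairs without hexokinase, 23 were. No background of pairs was computed within first title numbers, so these values are not set against one. A single component held 51.7% of the scaled variance of the 10 members and 60.9% of that of the 8 without hexokinase. Without cells 2-12 and 4-13, the median rho was 0.27 and 21 pairs were above 0.3, both lower than with all 50 cells.

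The glycolysis score moved with measures of the whole cell. Its rho with the number of genes above TPM 1 was 0.44, and with the percent of TPM in ribosomal protein rows, a median of 14.0%, it was -0.47. With the number of genes held fixed by partial rank correlation, the median rho of the member pairs was 0.33 and 26 pairs were above 0.3, against 3.73% of the background pairs. Of the members, Pgam1 had the highest rho with genes per cell (0.49) and Gpi1 the lowest (0.023). With the cells rescaled without ribosomal protein rows, the median rho was 0.31 and 23 pairs were above 0.3. What sets genes per cell in these cells was not tested.

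Among other enzymes of the pathway, phosphofructokinase was found in most cells. Of 18 isozymes and other steps listed, 10 had a row, and 2 passed TPM 1 in 50% of cells or more. Pfkl, the liver type of phosphofructokinase that commits the sugar to glycolysis, was in 49 cells with a median of 323 TPM, and Pfkp, the platelet type, was in 42 cells with a median of 42.1 TPM. Pfkl had a rho of 0.28 with the glycolysis score and Pfkp one of 0.27. The remaining 8 with a row had a median below TPM 1 and included the alternative lactate dehydrogenase subunit Ldhb, in 7 cells, and Ldhc, listed at 0 in every cell. The genes with no row, pyruvate kinase among them, were not analysed here.

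Of 11 regulators listed, 8 had a row and 3 were in at least 50% of cells. Pdk1, a kinase that turns off pyruvate dehydrogenase, was in 46 cells (median 58.0 TPM), Pfkfb3, which makes an activator of phosphofructokinase, was in 43 cells (median 40.4 TPM), and Pdk3, of the same kinase family as Pdk1, was in 25 cells (median 0.93 TPM). Their rho with the glycolysis score was 0.18, 0.085 and 0.31.

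The score of the carriers of glucose and lactate had a higher rho with the glycolysis score than those of the isozymes and regulators. This difference was not tested. Slc2a1 (GLUT1), a glucose carrier, was in 50 cells at 8.24 to 1641 TPM with a median of 653 TPM, and Slc2a3 (GLUT3), a glucose carrier of high affinity, was in 50 cells at 1.95 to 1506 TPM with a median of 551 TPM. Slc16a3 (MCT4), a lactate exporter, was in 49 cells at 0.75 to 725 TPM with a median of 215 TPM. Bsg (basigin), the chaperone of the lactate carriers, was in 50 cells at 92.6 to 2688 TPM with a median of 983 TPM. These 4 had a rho above 0.3 with the glycolysis score, at 0.34, 0.59, 0.67 and 0.57. As background, of the 11354 rows outside the members that varied over cells, 73.8% had a rho above 0 with the score and 10.3% were above 0.3. Slc16a1 (MCT1), also a lactate carrier, was in 26 cells with a median of 3.27 TPM and had a rho of 0.082, and Slc16a7 was listed at 0 in every cell. The score of the 6 carriers with a row had a rho of 0.66 with the glycolysis score, 0.59 given genes per cell, and 0.38 to 0.76 within first title numbers.

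Genes of oxygen sensing and genes induced by hypoxia were described in turn. Among the sensing genes, Hif1a, the oxygen-regulated subunit of the factor, was in 46 cells with a median of 54.7 TPM and had a rho of 0.10 with the glycolysis score. Epas1, its endothelial relative, was in 45 cells with a median of 26.2 TPM and had a rho of -0.23. Egln3, an oxygen-dependent hydroxylase that is itself a target of the factors, was in 45 cells with a median of 69.7 TPM and had a rho of 0.43. The remaining sensing genes in at least 50% of cells were Arnt, Egln1, Egln2 and Hif1an, with rho between -0.064 and 0.22. Vhl, which marks the factors for degradation, was in 21 cells and had the highest rho of the list (0.44). All 8 genes of the list had a row, 6 had a rho above 0 and 2 were above 0.3, beside the background of 73.8% and 10.3%, so the first count is near the background. Their score had a rho of 0.30, or 0.15 given genes per cell. The factors are regulated largely as proteins, which were not measured.

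Among 13 other genes known to be induced by hypoxia, all with a row, 12 had a rho above 0 with the glycolysis score and 5 were above 0.3, beside the background of 73.8% and 10.3%. The difference between the sensing and the induced genes was not tested. Bnip3, a mitochondrial protein of mitophagy, was in 50 cells at 6.57 to 2194 TPM with a median of 540 TPM and a rho of 0.64. P4ha1, a collagen prolyl hydroxylase, was in 47 cells with a median of 113 TPM and a rho of 0.54. Ero1l, an oxidase of the endoplasmic reticulum, had a rho of 0.43, Ndrg1 had 0.33 and Bnip3l, a relative of Bnip3, had 0.33. Vegfa, the endothelial growth factor, had 0.28, Kdm3a 0.26, Ddit4 0.23, Adm 0.14, Loxl2 0.072 and Ankrd37 -0.035. The score of the list had a rho of 0.67 with the glycolysis score, 0.61 given genes per cell, and between 0.61 and 0.86 within first title numbers. Without cells 2-12 and 4-13 the values for the carriers and for this list were 0.63 and 0.63.

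**Figure D4:**
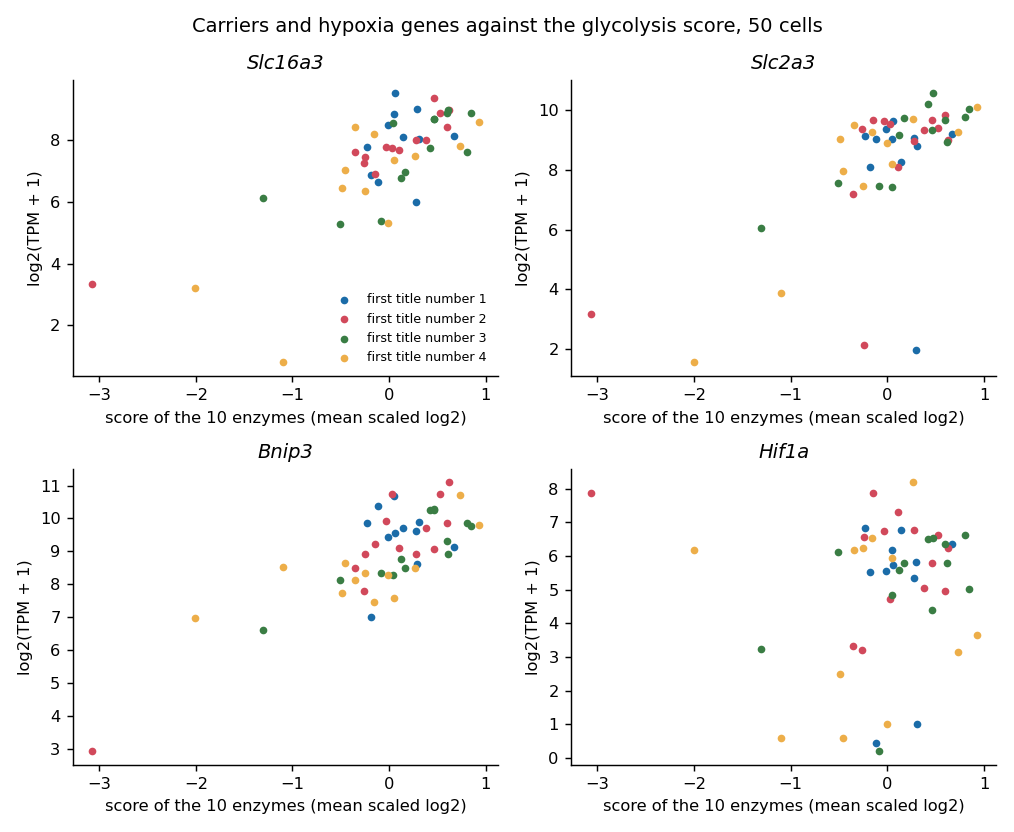
Log2(TPM + 1) of Slc16a3, Slc2a3, Bnip3 and Hif1a (y axes) against the glycolysis score (x axes, mean of scaled log2 values) in 50 cells, coloured by the first title number. The first 3 genes rise with the score (rho 0.67, 0.59 and 0.64), with cells 2-12 and 4-13 at the far left, and Hif1a has a rho of 0.10.

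Over 3407 genes that passed TPM 1 in 80% of cells or more, members left out, the median rho with the glycolysis score was 0.11 and 471 genes (13.8%) were above 0.3. The 10 genes with the highest rho were Gm5506 (0.77), Slc16a3 (0.67), Gm12070 (0.66), Bnip3 (0.64), Slc2a3 (0.59), Bsg (0.57), Nars (0.57), Rnmt (0.57), Eml4 (0.55) and Ifngr2 (0.55). Gm5506 and Gm12070 are the near copies of Eno1 and Gapdh, and the sharing of reads with the members was not tested. Nars joins asparagine to its tRNA and Rnmt methylates the cap of mRNA. Slc16a3, Slc2a3 and Bsg belonged to the list of carriers. Within first title numbers, the rho of Slc16a3 ranged from 0.27 to 0.91, that of Bsg from 0.27 to 0.70, that of Bnip3 from -0.15 to 0.75 and that of Slc2a3 from -0.073 to 0.71.

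Of the other lists, 6 on metabolism and 1 on stress were set beside the glycolysis score. The rho was 0.50 for glycogen, 0.49 for pyruvate dehydrogenase, 0.46 for the pentose phosphate pathway, 0.42 for the citric acid cycle, 0.41 for the serine branch, 0.35 for stress and immediate-early genes and 0.29 for NADH shuttles. Given genes per cell these became 0.33, 0.29, 0.25, 0.16, 0.22, 0.29 and 0.023. The citric acid cycle itself had a rho of 0.74 with genes per cell. The isozymes had 0.52 (0.40 given genes per cell) and the regulators 0.43 (0.32). Cell division genes had -0.070, or -0.24 given genes per cell. Ribosomal protein rows (83) had -0.45, or -0.27 given genes per cell, with which that list had a rho of -0.58. Nuclear-encoded respiratory chain rows (80) had -0.10, or -0.19 given genes per cell. In all, 10 of 19 lists with a score were above 0.3, and 5 were with genes per cell held fixed, namely hypoxia-induced genes, carriers, isozymes, glycogen and regulators. A score averages many genes and no background for a score was computed, so these values are not set against the share of single genes. By single genes, beside the background of 10.3% above 0.3, this level was passed by 2 of 8 regulators, 2 of 10 isozymes, 3 of 6 glycogen genes, 2 of 5 pyruvate dehydrogenase genes, 3 of 7 pentose phosphate genes, 2 of 16 citric acid cycle genes, 2 of 5 serine branch genes, 1 of 8 stress genes and 1 of 4 NADH shuttle genes. The regulators had a median rho of 0.11, beside 0.10 over the 11354 rows.

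The lists of cell types were set beside the score in the same way. The rho with the glycolysis score was 0.096 for the endothelial list (8 of 8 with a row, summed level 496 to 6344 TPM) and -0.0048 for the blood list (6 of 6, summed level 17.5 to 2266 TPM). It was 0.18 for megakaryocyte genes (4 of 5 with a row, summed level 0 to 712 TPM) and 0.095 for myeloid genes (7 of 7, 0 to 3986 TPM). The mesenchymal and erythroid lists had a median summed level of 0 TPM, so their rho of 0.15 and 0.061 says little, and no gene of the pluripotent list had a row (0 of 6). Runx1, the factor that was induced, had a median of 132 TPM and a rho of 0.24, Myc one of 0.22 and Mycn one of 0.20. These genes and lists were part of 26 relations computed, none with a p.

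**Figure D5:**
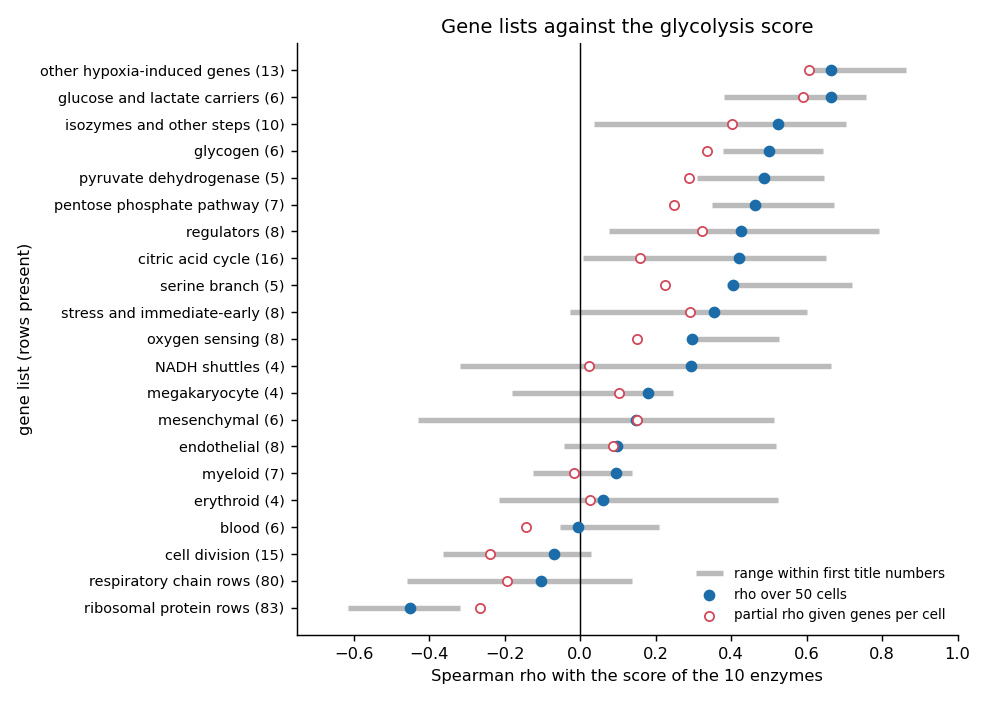
Spearman's rho of list scores with the glycolysis score over 50 cells (filled points), the partial rho given genes per cell (open points) and the range of rho within the 4 first title numbers (grey bars), with the number of rows of each list in brackets. Hypoxia-induced genes (0.67) and carriers (0.66) are at the top, ribosomal protein rows (-0.45) at the bottom.

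The promoters of the enzymes were read for ACGTG, the core of the element that hypoxia-inducible factors bind. The windows run from 250 bases before to 50 bases after each start site, in RefSeq on GRCm38.p6, and were searched on both strands, so that CACGTG, an E-box that Myc proteins bind, counts as a match on each strand. Of 32851 windows of all genes, 19.6% held ACGTG, 8.21% held more than 1 match and 7.15% held CACGTG. Among the members, Hk1, Hk2, Pgk1 and Ldha had a window with more than 1 match, and only Ldha held CACGTG. Of the 16 windows of the 10 members, 8 held ACGTG (50%), among them a pair of overlapping Aldoa windows that hold the same site. By gene this was 7 of the 10 members, beside 21.8% of all genes with a window. The element's other form, GCGTG, was found in 32.4% of all windows and in 8 of the 16 member windows, in 5 members, with overlapping windows among those of Eno1. The share of all genes with GCGTG was not computed. Gpi1 and Tpi1 held neither form, and Eno1 held no ACGTG but 2 GCGTG in each of its windows.

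A window of each of 5 genes is shown, for the member with the most matches (Ldha), another with a pair of matches (Pgk1), a member with neither form (Tpi1), and the carrier and the hypoxia-induced gene nearest to the members in rho (Slc16a3 and Bnip3). They are Ldha at chr7:46845554-46845853 (+ strand), Pgk1 at chrX:106186850-106187149 (+ strand), Tpi1 at chr6:124814109-124814408 (- strand), Slc16a3 at chr11:120948817-120949116 (+ strand) and Bnip3 at chr7:138909457-138909756 (- strand). Each is written in the sense of the gene, and capitals mark ACGTG or its reverse complement CACGT.

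Ldha: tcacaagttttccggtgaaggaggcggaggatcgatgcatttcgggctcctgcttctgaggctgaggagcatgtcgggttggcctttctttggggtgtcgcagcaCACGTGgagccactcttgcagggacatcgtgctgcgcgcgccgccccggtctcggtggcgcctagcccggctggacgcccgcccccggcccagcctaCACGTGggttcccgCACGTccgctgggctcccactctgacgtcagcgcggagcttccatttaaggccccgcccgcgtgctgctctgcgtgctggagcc

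Pgk1: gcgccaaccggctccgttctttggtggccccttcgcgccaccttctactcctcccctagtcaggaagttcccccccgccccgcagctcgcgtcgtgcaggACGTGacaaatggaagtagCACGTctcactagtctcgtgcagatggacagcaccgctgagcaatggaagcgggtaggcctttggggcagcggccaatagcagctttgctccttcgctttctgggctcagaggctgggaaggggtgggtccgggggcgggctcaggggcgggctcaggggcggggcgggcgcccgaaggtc

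Tpi1: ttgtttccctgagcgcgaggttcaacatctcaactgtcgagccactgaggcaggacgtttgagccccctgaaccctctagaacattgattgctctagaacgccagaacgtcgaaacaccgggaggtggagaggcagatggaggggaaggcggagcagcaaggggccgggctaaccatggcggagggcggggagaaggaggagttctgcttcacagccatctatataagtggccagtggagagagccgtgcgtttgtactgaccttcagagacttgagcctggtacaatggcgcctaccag

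Slc16a3: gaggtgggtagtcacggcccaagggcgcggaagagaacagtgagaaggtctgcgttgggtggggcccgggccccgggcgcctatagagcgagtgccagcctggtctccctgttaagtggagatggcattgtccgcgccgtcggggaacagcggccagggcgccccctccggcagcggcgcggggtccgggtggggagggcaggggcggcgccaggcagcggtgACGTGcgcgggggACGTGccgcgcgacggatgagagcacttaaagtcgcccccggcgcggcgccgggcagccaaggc

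Bnip3: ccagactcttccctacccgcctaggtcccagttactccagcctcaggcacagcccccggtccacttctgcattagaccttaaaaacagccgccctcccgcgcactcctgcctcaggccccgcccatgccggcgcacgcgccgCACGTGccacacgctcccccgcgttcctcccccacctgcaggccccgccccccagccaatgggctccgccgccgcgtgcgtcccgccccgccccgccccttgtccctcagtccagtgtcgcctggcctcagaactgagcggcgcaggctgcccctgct

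The Ldha window held 5 matches, which form 2 copies of CACGTG and 1 further CACGT between 145 and 34 bases before the start site, and 60 of all windows held 5 or more. The other Ldha window held 0. Pgk1 held 2 matches, 150 and 131 bases before its start, Slc16a3 held 2, 27 and 14 bases before, and Bnip3 held 1 CACGTG 108 bases before. No relation between matches and rho was computed. A match of letters is not evidence of binding, which was not measured here.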

How the data were processed

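Single iRunx1-iHECs were taken as 1 group of 50 cells by their titles. Per the labels and the study's methods, cDNA was made with Discover-sc WTA Kit V2 and libraries with the TruePrep kit, with no molecular identifiers named. The authors aligned reads to mm10 with HISAT2 2.1.0 and estimated TPM with StringTie 1.3.4 (SAMtools 0.1.19 and bcl2fastq are also in the submitters' processing notes), and the deposited table holds these TPM per gene and cell. The series text and the methods name different sequencers, and strand handling and the annotation are not given in the sources used here. Library depth is unknown, so a 0 means only that a gene is listed at 0, and no count model was used.

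Values were read as deposited, with 0 columns left out. Expression was TPM above 1, and logs were log2(TPM + 1). The study used TPM above 1 when it selected genes for its t-SNE display of cells. Gene coordinates came from GENCODE M21 (GRCm38), older symbols and promoters from RefSeq (GRCm38.p6), and near copies from BLAST 2.17.0 of GENCODE transcripts. Spearman's rho, its partial form on ranks given genes per cell, and scores were computed with numpy 2.4.6, pandas 2.3.3 and scipy 1.17.1 in Python 3.11.15, and the script was tested on simulated data. Intervals are exact Clopper-Pearson at 95%. The background of pairs was all genes that passed TPM 1 in 80% of cells or more. No test between groups and no p were computed.

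The named genes were the 10 members, genes of the lists of isozymes, regulators, carriers, oxygen sensing and hypoxia that passed TPM 1 in 50% of cells or more, the 10 genes outside the members with the highest rho with the glycolysis score, and near copies with a row. Ldhb and Ldhc, Slc16a7, Vhl, the endothelial and blood markers named, the genes named with the lowest rho and the cells named singly were chosen after their values were seen. The members and lists were chosen with earlier results of these data known. Alternatives changed the cells, scaling, level of expression, pseudocount, measure, covariate, members and filter.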

Additional observations from a re-analysis of the deposited data

How the results depend on the processing

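In 71 of 73 alternative values the result moved by less than its spread or stayed within 1.5 times. Among these values, neither the median rho of the member pairs nor the rho of the score with genes per cell changed sign. Outside them some rho did, as for Slc16a1 (0.082, or -0.15 given genes per cell) and the myeloid list (0.095, or -0.016). Of the 71 values, 3 could not move, since all 10 members passed the filter of 80% of cells. The number of members above TPM 1 in every cell (8) could not leave the range of 1.5 times either. These 8 had lowest values of 35.5 TPM or more, above every level tried, and the number can rise only to 10. The 2 values outside the limits were the median percent of TPM in the 10 members and the number of lists with a rho above 0.3. The first was 1.8% after rescaling without ribosomal protein rows, as the smaller total requires. The second was 5 in place of 10 with genes per cell held fixed. Dropping 1 first title number at a time gave a median of 1.51% to 1.58% of TPM, a spread of 0.50 to 0.59, a median pairwise rho of 0.30 to 0.38, 24 to 28 pairs above 0.3 and a rho of 0.38 to 0.49 with genes per cell. Of the 10 genes nearest to the members, 8 were shared with the ranking at 50% of cells and 7 with the partial ranking. In alternatives chosen after seeing the data, adding the near-copy rows to Gapdh and Eno1 gave a median rho of 0.36 and 28 pairs above 0.3, and leaving out cells 2-12 and 4-13 gave 0.27 and 21 pairs. The added lists (ribosomal protein and respiratory chain rows), the background of rows with a median of 500 TPM or more and the values without the lowest cells for the lists were also chosen then. Without Gapdh, 20 of 36 pairs (55.6%) were above 0.3 and the median rho was 0.35. No paired analysis was possible because the cells form a single group. Unknown depth, no named replicate culture, near-copy rows and a shared TPM total limit all of these values.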

Other observations

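Toward the other end of the ranking against the glycolysis score stood many ribosomal protein rows. Of 81 ribosomal protein rows ranked, 73 had a rho below 0, where 28.8% of all 3407 ranked genes did, and 38 were below -0.3, where 3.4% of all ranked genes were. Their median was -0.28. Ribosomal rows made up 5 of the 10 lowest genes, led by Rplp1 (rho -0.69, median 1592 TPM), Rpl21 (-0.55, median 173 TPM) and Rps20 (-0.51, median 1838 TPM). With genes per cell held fixed these were -0.62, -0.45 and -0.37. The other 5 of the 10 lowest were Shank3 (-0.49), Shfm1 (-0.49), C330021F23Rik (-0.49), Ndufa5 (-0.48), a subunit of respiratory complex I, and Atox1 (-0.47), a copper chaperone. These genes were named after their values were seen. Ribosomal rows took a median of 14.0% of a cell's TPM, so the values share a total with those of the enzymes, and their part in each other's rho was not tested beyond the rescaling given above.

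In cell 2-12, with the lowest enzyme total, Slc16a3 was at 9.17, Slc2a3 at 8.08 and Bnip3 at 6.57 TPM, while Hif1a was at 232 TPM against a median of 54.7 TPM over the 50 cells. In cell 4-13 these were 8.34, 1.95, 125 and 72.0 TPM. Hif1a was also at 232 and 290 TPM in cells 2-13 and 4-14, with glycolysis scores of -0.15 and 0.26.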
